A study of Homo sapiens with 10 samples.

Results

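The nuclear receptors RORA, RORB, PPARA, PPARD and PPARG were examined in WM164 human melanoma cells together with LPL, ANGPTL4, PDK4 and CPT1A, genes of lipid supply and fuel choice known as PPAR targets. The 9 genes were taken by name from a table of 54826 entries, each gene having 1 entry, and followed through all 10 RNA-seq libraries. WM164 is an established line derived from a human melanoma. Cells of both genotypes received for 24 h either 0.1% ethanol, the vehicle, or 100 nM of 1,25(OH)2D3, 1,20(OH)2D3, 25(OH)D3 or 20(OH)D3, in medium with charcoal-treated serum. The genotypes were cells labelled as a knockout of the vitamin D receptor (VDR), named VDR-KD here, and cells with the receptor infected with a scrambled control, named VDR-WT. The paper on these cells describes a knockdown in place of a knockout. Each combination of genotype and treatment had 1 library, so no condition had a replicate, and the labels name no batch and no second clone.

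The retinoic acid receptor-related orphan receptors (RORs) bind DNA mostly as monomers at an AGGTCA half-site with an A/T-rich flank and drive genes of the circadian clock and of lipid metabolism. The peroxisome proliferator-activated receptors (PPARs) bind as partners of RXR receptors at direct repeats of that half-site with 1 base between them (DR1), are activated by fatty acids, and raise genes that release, take up and burn fat. The hydroxyderivatives of vitamin D3 differ in their hydroxyl groups. 1,25(OH)2D3 and 1,20(OH)2D3 carry a hydroxyl at C1α that 25(OH)D3 and 20(OH)D3 lack, and 1,20(OH)2D3 and 20(OH)D3 carry at C20 the side-chain hydroxyl that the other compounds carry at C25. Besides the VDR, RORα and PPARγ have been considered as receptors for some of them, with 20(OH)D3 reported as an inverse agonist of RORα. The RNA levels of the receptors and their targets are described below, and whether a compound acts on a receptor was not tested.

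All values are FPKM, fragment counts scaled to transcript length and to the size of the library, so levels can be compared between genes. Libraries were alike in the total FPKM of all entries (577696 to 651658) and in the number of entries with at least 1 FPKM (12894 to 13268). The melanocyte markers MITF, SOX10, PMEL, MLANA, TYR and DCT were abundant, with means from 143 (SOX10) to 4336 FPKM (PMEL). TYRP1 was low, with a mean of 0.702 FPKM. The summed level of these 7 markers was 5690 to 9167 FPKM. TYR, PMEL and MITF passed the genotype test described below as lower in VDR-KD (log2 fold changes -0.49, -0.25 and -0.16) and 0 as higher, 42.9% beside 22.8% of all entries. With 1,25(OH)2D3 against ethanol 2 of the 7 passed as higher (28.6%, beside 1.99% of all entries). Of 6 adipocyte markers 5 stayed under 0.5 FPKM in every library and CIDEC, LEP and FABP4 were listed at 0. Under 0.5 FPKM throughout were also 3 of 5 hepatocyte markers (ALB at 0), 4 of 5 muscle markers (CKM at 0), 2 of 4 leukocyte and macrophage markers (CD3E at 0) and 2 of 5 fibroblast markers (none at 0). Single genes of these lists were present and passed the genotype test described below, SERPINA1, TNNT1, LYZ and LUM (means of 4.05, 17.7, 2.71 and 97.0 FPKM) as higher in VDR-KD and DCN as lower (log2 fold change -1.20). The summed fibroblast markers were at 75.4 to 100.1 FPKM in VDR-WT and 94.9 to 134 FPKM in VDR-KD, and their part in the results was not tested. The RNA of the targeted gene was not lower in the libraries labelled VDR-KD, and the receptor protein was not measured here. Here and below, values of a genotype are listed in the order ethanol, 1,25(OH)2D3, 1,20(OH)2D3, then 25(OH)D3 and last 20(OH)D3. VDR was at 9.63, 7.55, 6.75, 9.03 and 5.54 FPKM in the VDR-WT libraries and at 13.6, 12.1, 13.2, 11.96 and 14.8 FPKM in the libraries labelled VDR-KD, higher in 5 of 5 treatments. CYP24A1, the vitamin D 24-hydroxylase and a classical VDR target, rose with 1,25(OH)2D3 in both, to 56.8 and 77.3 FPKM from 0.0777 and 0.452 FPKM with ethanol. The directions below are therefore those of the libraries labelled VDR-KD against those labelled VDR-WT.

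The levels of the genes spanned a wide range. In VDR-WT CPT1A was the most abundant, with a mean of 12.3 FPKM, followed by ANGPTL4 (7.88 FPKM), PPARD (5.30 FPKM), PPARA (4.97 FPKM), LPL (2.71 FPKM), RORA (2.11 FPKM), RORB (1.94 FPKM) and PDK4 (0.899 FPKM). The values of PPARD and PPARA overlapped, as did those of LPL, RORA and RORB, and those of RORB and PDK4. In VDR-KD CPT1A (22.1 FPKM) was followed by LPL (9.29 FPKM), PPARA (6.85 FPKM), ANGPTL4 (6.22 FPKM) and PPARD (4.95 FPKM). The ranges of LPL, PPARA, ANGPTL4 and PPARD overlapped, except that every PPARA value (6.20 to 7.89 FPKM) lay above every PPARD value (4.55 to 5.33 FPKM). RORA (2.01 FPKM), PDK4 (1.84 FPKM) and RORB (0.787 FPKM) came next. By mean PPARG was the lowest in both, although in VDR-KD its values (0.181 to 0.998 FPKM) overlapped those of RORB (0.535 to 1.02 FPKM). With a mean of 0.516 FPKM over all libraries it lay just above the limit for testing, a mean of 0.5 FPKM, and all 9 genes passed it, among 14689 entries tested.

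**Figure D1:**
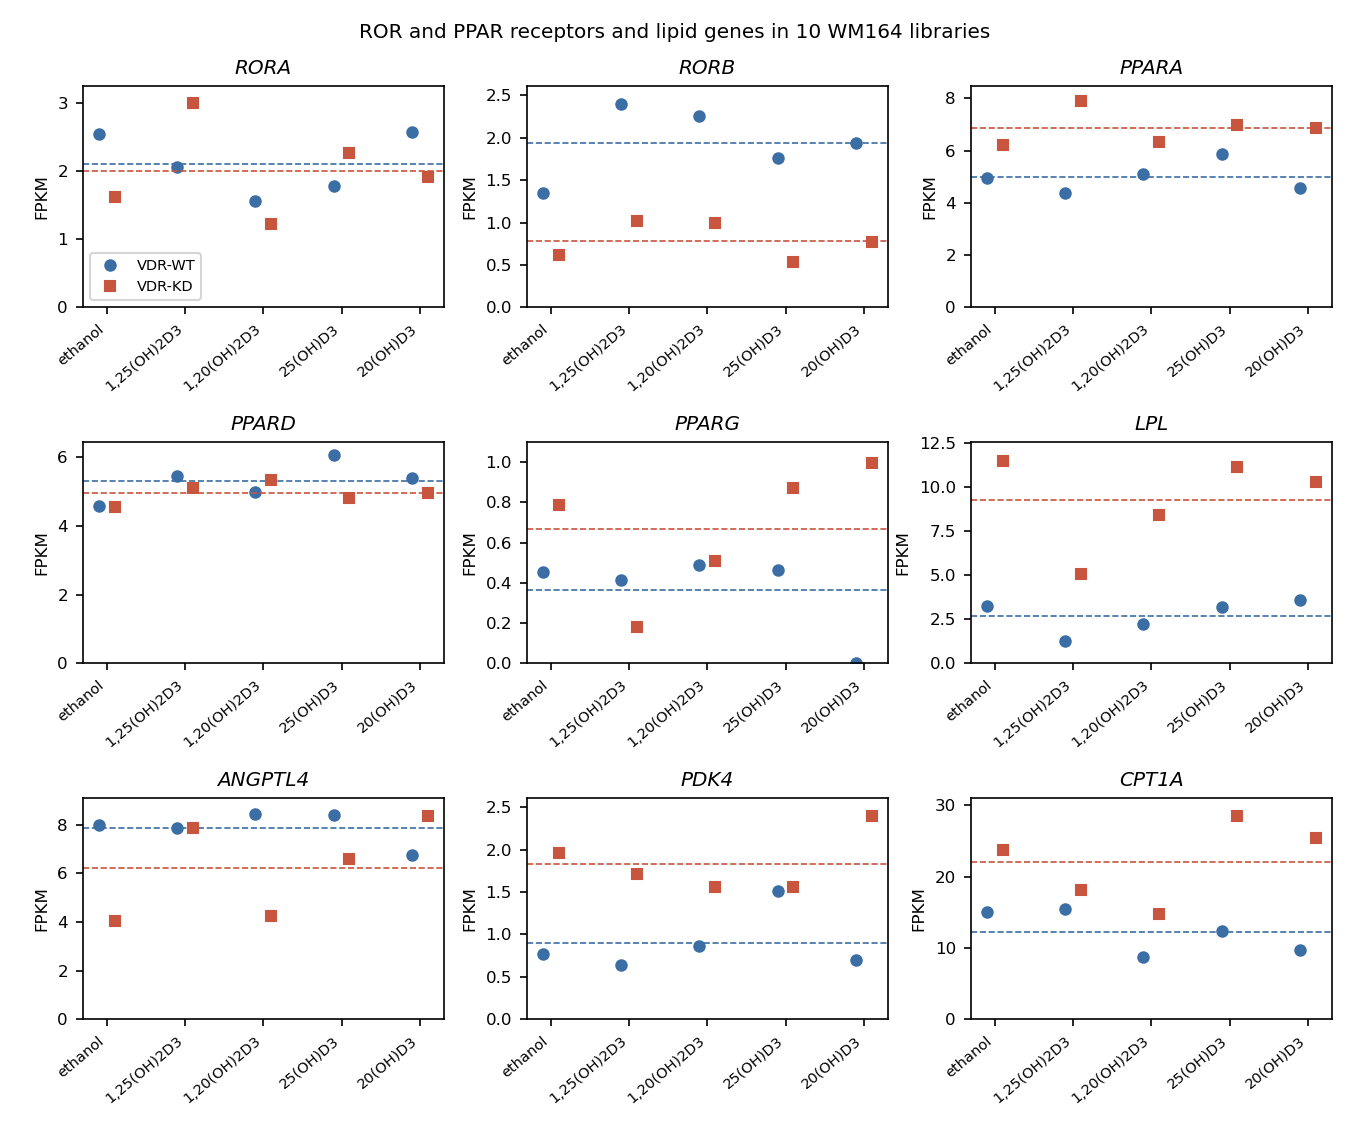
FPKM of the 9 genes (vertical axes, linear, from 0) in each of the 10 libraries, by treatment (horizontal axes). Circles are the libraries labelled VDR-WT, squares those labelled VDR-KD, and dashed lines the mean of the 5 libraries of a genotype. LPL, PPARA and PDK4 lie higher in all VDR-KD libraries than in any VDR-WT library, RORB lies lower, and LPL is lowest with 1,25(OH)2D3 in each genotype.

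Between the genotypes, 5 of the 9 genes passed the test, 4 higher in VDR-KD (LPL, PDK4, CPT1A and PPARA) and 1 lower (RORB). The test was limma on log2(FPKM + 0.1) with treatment as a block, an adjusted p (Benjamini-Hochberg over all entries) under 0.05 and 4 residual degrees of freedom, so that each treatment gives a pair of genotypes. Over all entries 22.8% passed it, 13.1% being higher and 9.68% lower. The median log2 fold change of the 9 genes was 0.46, against 0.016 over all entries. The 5 libraries of the genotypes did not overlap for 4 of the 9 genes (LPL, PPARA, PDK4 and RORB), and for 14.6% of all entries. In bulk RNA, fewer expressing cells and less RNA per cell cannot be told apart. Since the 5 libraries of a genotype had different treatments and nothing says that they came from separate cultures, the p-values measure the spread between these libraries only.

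Of the receptors, RORB showed the largest difference that passed. RORβ is known from the retina, the brain and the pineal gland. It was at 1.35, 2.39, 2.25, 1.76 and 1.93 FPKM in VDR-WT and at 0.621, 1.02, 0.990, 0.535 and 0.767 FPKM in VDR-KD. Every VDR-KD value lay below every VDR-WT value, and the 2 lowest values of each genotype were those with ethanol and 25(OH)D3. The mean was 1.94 ± 0.415 FPKM in VDR-WT and 0.787 ± 0.217 FPKM in VDR-KD (SD, n = 5), a log2 fold change of -1.21 ± 0.207 (SE; limma adjusted p = 0.00447), lower in 5 of 5 treatments. With 1 in place of 0.1 added before the logarithm it was -0.71, also past the threshold. RORB lies on chromosome 9 (GRCh38, 74485551 to 74693177, plus strand). The antisense gene RORB-AS1 lies within it, and the sources used here do not say whether reads were assigned by strand.

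RORA, the receptor considered for 20(OH)D3 and its relatives, which activates clock genes such as ARNTL, did not differ detectably. Its values were 2.55, 2.06, 1.57, 1.78 and 2.58 FPKM in VDR-WT and 1.62, 3.01, 1.23, 2.26 and 1.91 FPKM in VDR-KD. The ranges overlapped fully, VDR-KD being higher in 2 of 5 treatments, and both genotypes were lowest with 1,20(OH)2D3. The log2 fold change was -0.10 (95% interval -0.59 to 0.39, limma adjusted p = 0.770), and its sign turned when the ethanol library of either genotype was left out (0.029). The RORA entry (chromosome 15, 60479178 to 61229319, minus strand) also carries the name of an ultraconserved transcript, and 9 annotated genes lie on its other strand, among them RORA-AS1 and RORA-AS2.

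PPARA, the PPAR of liver and muscle that drives fatty acid oxidation in fasting, was modestly higher in VDR-KD. It was at 4.94, 4.38, 5.09, 5.85 and 4.58 FPKM in VDR-WT and at 6.20, 7.89, 6.31, 6.98 and 6.85 FPKM in VDR-KD. The genotypes did not overlap, although the VDR-WT value with 25(OH)D3 came near the VDR-KD value with ethanol. The mean rose from 4.97 ± 0.568 to 6.85 ± 0.673 FPKM (SD, n = 5), a log2 fold change of 0.46 ± 0.115 (SE; limma adjusted p = 0.0234), higher in 5 of 5 treatments. PPARA lies on chromosome 22 (46150521 to 46243756, plus strand), PPARD on chromosome 6 (35342558 to 35428191, plus strand) and PPARG on chromosome 3 (12287368 to 12434356, plus strand).

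PPARD, the broadly expressed PPAR, was the steadiest of the 9 genes. It was at 4.59, 5.46, 4.996, 6.07 and 5.41 FPKM in VDR-WT and at 4.55, 5.10, 5.33, 4.80 and 4.97 FPKM in VDR-KD. The ranges overlapped, and the ethanol libraries of both genotypes were nearly equal. The log2 fold change was -0.09 (95% interval -0.33 to 0.14, limma adjusted p = 0.558), which bounds a difference more closely than for any other of these genes. PPARG, the PPAR of fat cells, was at 0.453, 0.412, 0.488, 0.462 and 0 FPKM in VDR-WT and at 0.789, 0.181, 0.507, 0.869 and 0.998 FPKM in VDR-KD. It was listed at 0 in the VDR-WT library with 20(OH)D3 alone, and the interval of its log2 fold change of 0.82 ran from -0.61 to 2.25 (limma adjusted p = 0.385). At this level a difference between the genotypes was not detectable.

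**Figure D2:**
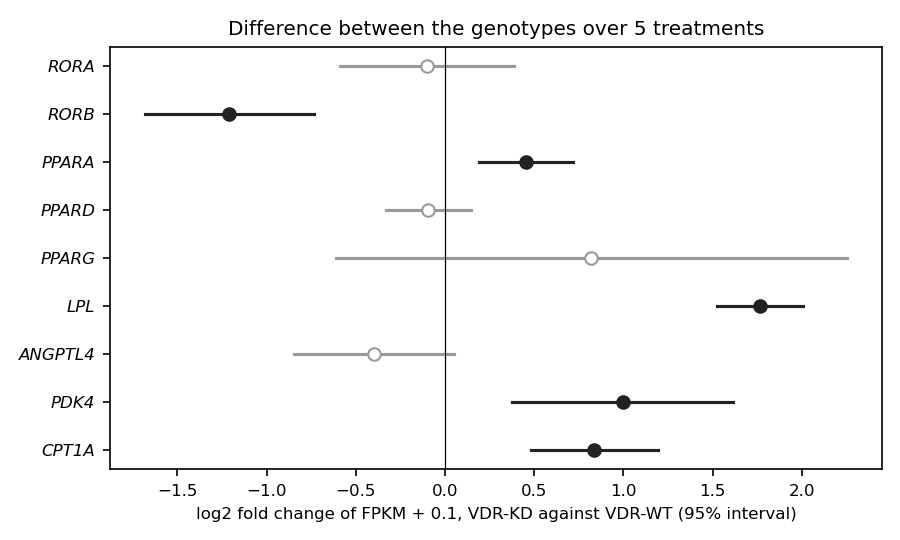
Log2 fold change of FPKM + 0.1 in VDR-KD against VDR-WT (horizontal axis) for each of the 9 genes (rows), over 5 treatments. Points are the estimates and lines their 95% intervals, filled where the adjusted p was under 0.05. LPL stands farthest to the right (1.77), RORB farthest to the left (-1.21), and PPARG has the widest interval.

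LPL, lipoprotein lipase, which releases fatty acids from circulating triglycerides and is a target of PPARs in fat and liver, gave the largest difference. It was at 3.24, 1.29, 2.26, 3.18 and 3.57 FPKM in VDR-WT and at 11.5, 5.07, 8.41, 11.2 and 10.3 FPKM in VDR-KD. The lowest VDR-KD library, with 1,25(OH)2D3, stood above the highest VDR-WT library. The mean rose from 2.71 ± 0.931 to 9.29 ± 2.65 FPKM (SD, n = 5), a log2 fold change of 1.77 ± 0.105 (SE; 3.40-fold on the FPKM + 0.1 scale, limma adjusted p = 6.56e-05). Single treatments gave log2 ratios of 1.504 to 1.89. LPL was read at chromosome 8, 19901717 to 19967258, plus strand, and no annotated gene lies on the other strand there.

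PDK4 and CPT1A, which act at the switch from glucose to fat as fuel, were also higher in VDR-KD. PDK4 phosphorylates pyruvate dehydrogenase and so closes the entry of pyruvate into the citric acid cycle. It was at 0.771, 0.643, 0.863, 1.51 and 0.704 FPKM in VDR-WT and at 1.95, 1.71, 1.56, 1.56 and 2.40 FPKM in VDR-KD. The VDR-WT library with 25(OH)D3 lay apart from the other VDR-WT libraries and close to the VDR-KD library with the same compound, so that single treatments gave log2 ratios from 0.04 to 1.64. The log2 fold change was 0.997 ± 0.271 (SE, n = 5; limma adjusted p = 0.0310), higher in 5 of 5 treatments, and 0.588 with 1 in place of 0.1 added (adjusted p = 0.0316).

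CPT1A carries out the rate-limiting step of the entry of long-chain fatty acids into mitochondria. It was at 15.1, 15.5, 8.72, 12.4 and 9.72 FPKM in VDR-WT and at 23.7, 18.1, 14.7, 28.6 and 25.4 FPKM in VDR-KD. VDR-KD was higher in 5 of 5 treatments, but the ranges met, since the VDR-KD value with 1,20(OH)2D3 lay below the VDR-WT values with ethanol and 1,25(OH)2D3. The log2 fold change was 0.84 ± 0.155 (SE, n = 5; limma adjusted p = 0.00630). PDK4 lies on chromosome 7 (95583499 to 95596491) and CPT1A on chromosome 11 (68754620 to 68844410), both on the minus strand.

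ANGPTL4, a secreted inhibitor of lipoprotein lipase and one of the most responsive PPAR targets, did not go with the other targets. It was at 7.997, 7.85, 8.44, 8.39 and 6.74 FPKM in VDR-WT and at 4.04, 7.88, 4.24, 6.57 and 8.37 FPKM in VDR-KD. The VDR-KD libraries with ethanol and 1,20(OH)2D3 were low and the others lay at or near the VDR-WT range. The log2 fold change was -0.40 (95% interval -0.84 to 0.052, limma adjusted p = 0.183), VDR-KD being higher in 2 of 5 treatments. The ANGPTL4 entry (chromosome 19, 8363289 to 8404434, plus strand) runs past the end of the gene at 8374373 over RAB11B, so part of its value may be reads of that gene.

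Of 7 heat shock genes, HSPA6, HSPA1A and HSPA1B moved with some libraries. HSPA6, an inducible HSP70, was at 0.176 and 0.655 FPKM in the VDR-WT libraries with 1,25(OH)2D3 and 20(OH)D3 and at 0.720 and 0.468 FPKM in the VDR-KD libraries with 1,25(OH)2D3 and 1,20(OH)2D3, and between 6.71 and 44.5 FPKM in the other 6. HSPA1A followed it, with 6.65 to 16.6 FPKM in those 4 libraries and 28.7 to 165 FPKM in the others. DNAJB1, HSPH1, HSPA8 and HSP90AA1 did not follow it. DNAJB1 was highest with 1,25(OH)2D3 in each genotype, at 103 FPKM in VDR-WT and 141 FPKM in VDR-KD, against 73.7 and 94.7 FPKM with ethanol. Without the VDR-WT library with 20(OH)D3 and the VDR-KD library with 1,20(OH)2D3, those of the 4 not matched in the other genotype, LPL alone of the 9 genes passed (adjusted p = 0.0217). That fit left 2 residual degrees of freedom. In it 618 of all 14689 entries passed as higher and 360 as lower, against 1925 and 1422 with all 10 libraries. The log2 fold change of RORB was then -1.23 (adjusted p = 0.0606), that of CPT1A 0.69 (adjusted p = 0.110), that of PPARA 0.47 (adjusted p = 0.154) and that of PDK4 0.86 (adjusted p = 0.194). PPARA and PDK4 also missed the threshold when any 1 of 8 libraries was left out, all but those with 25(OH)D3 (adjusted p from 0.0512 to 0.103), whereas RORB, CPT1A and LPL passed in each of these 10 fits.

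Of the compounds, 1,25(OH)2D3 alone gave a call against ethanol among the 9 genes, and that was for LPL. With 1,25(OH)2D3 LPL fell from 3.24 to 1.29 FPKM in VDR-WT and from 11.5 to 5.07 FPKM in VDR-KD, log2 ratios of -1.26 and -1.16. The joint log2 fold change was -1.21 (95% interval -1.60 to -0.83, n = 2 libraries per treatment; limma adjusted p = 0.0119, 4 residual degrees of freedom). Over all entries 1.99% passed in this comparison, 1.46% higher and 0.531% lower. The call for LPL was lost without either ethanol library or either 1,25(OH)2D3 library (adjusted p = 0.0822 to 0.147), each of which leaves 1 library in an arm, while the log2 fold change stayed between -1.29 and -1.13. Both 1,25(OH)2D3 libraries were low in HSPA6 (0.176 and 0.720 FPKM) and both ethanol libraries high (9.37 and 32.3 FPKM), so the compound and this state cannot be told apart in this comparison. Without the pair of libraries named above the call was also lost (log2 fold change -1.21, adjusted p = 0.0825). The comparisons with ethanol share the ethanol libraries.

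LPL with 1,20(OH)2D3 lay between ethanol and 1,25(OH)2D3 and did not pass, and it lay near ethanol with the compounds that lack the C1α hydroxyl. The log2 ratios of 1,20(OH)2D3 were -0.50 in VDR-WT and -0.44 in VDR-KD, with a joint value of -0.47 (95% interval -0.85 to -0.09; unadjusted p = 0.0212, limma adjusted p = 0.316). For 25(OH)D3 the joint value was -0.03 (95% interval -0.41 to 0.35) and for 20(OH)D3 -0.01 (95% interval -0.39 to 0.37). None of the 9 genes passed with these 3 compounds, nor did more than 0.0204% of all entries with 1,20(OH)2D3, 0.0% with 25(OH)D3 and 0.0% with 20(OH)D3. At an unadjusted p under 0.05 in limma, 2 of the 9 genes were found with 1,20(OH)2D3 (LPL and CPT1A) and 0 with 25(OH)D3 and with 20(OH)D3, against 1838, 1180 and 2092 of all entries.

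**Figure D3:**
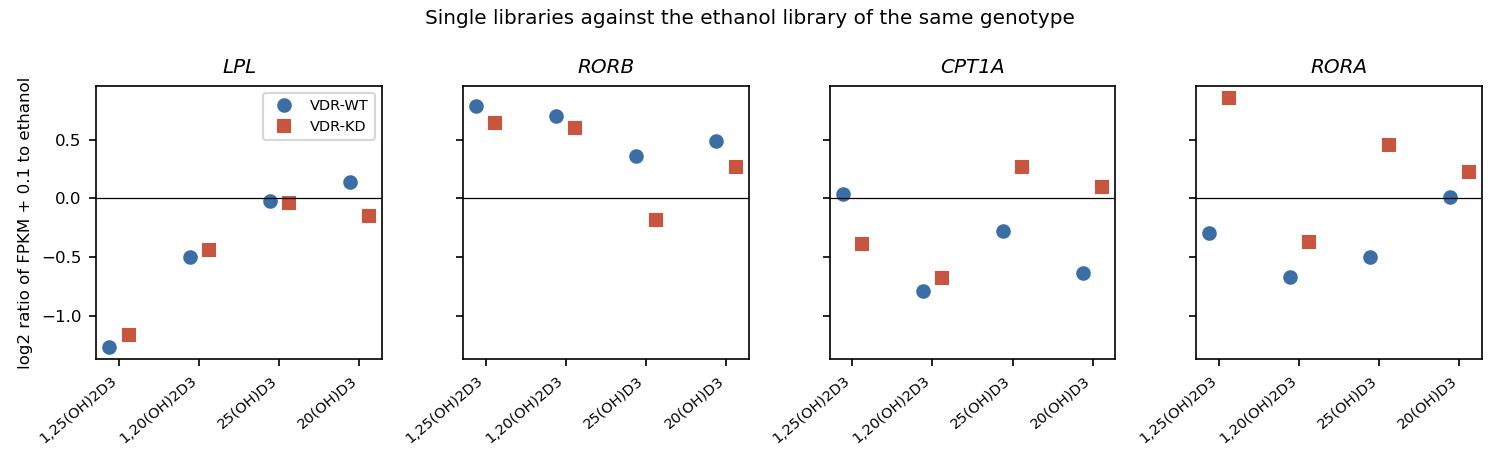
Log2 ratio of FPKM + 0.1 to the ethanol library of the same genotype (vertical axis) for LPL, RORB, CPT1A and RORA with each compound at 100 nM (horizontal axis). Each point is 1 library against 1 library, circles within VDR-WT and squares within VDR-KD. LPL lies at -1.26 and -1.16 with 1,25(OH)2D3, at -0.50 and -0.44 with 1,20(OH)2D3 and near 0 with the others, and RORB lies above 0 in both genotypes with 3 of the 4 compounds.

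The compounds were compared with each other at this dose and time in 4 pairs and 2 averages over pairs. The C1α hydroxyl sets 1,25(OH)2D3 apart from 25(OH)D3, and in this pair LPL differed by -1.18 on the log2 scale (95% interval -1.56 to -0.80, limma adjusted p = 0.01004; 3.06% of all entries passed). It was the only 1 of the 9 genes to pass. HSPA6 was low in both 1,25(OH)2D3 libraries (0.176 and 0.720 FPKM) and high in both 25(OH)D3 libraries (15.7 and 44.5 FPKM). The hydroxyl and this state therefore cannot be told apart in this pair. The C1α hydroxyl also sets 1,20(OH)2D3 apart from 20(OH)D3, and there LPL differed by -0.46 (95% interval -0.85 to -0.08, adjusted p = 0.610; 0.034% passed), which is not a call. Averaged over both pairs, the C1α hydroxyl went with a log2 fold change of LPL of -0.82 (95% interval -1.09 to -0.55, limma adjusted p = 0.0133; 2.34% passed). This average was past the threshold in 9 of 19 alternative fits, and no single library of the compounds could be left out without losing it. Among its libraries the VDR-KD library with 1,20(OH)2D3 and the VDR-WT library with 20(OH)D3 were also low in HSPA6 (0.468 and 0.655 FPKM).

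The position of the side-chain hydroxyl gave no call among the 9 genes. Between 1,25(OH)2D3 and 1,20(OH)2D3 LPL differed by -0.74 (95% interval -1.12 to -0.36, unadjusted p = 0.00190, limma adjusted p = 0.163; 0.259% passed) and RORA by 0.80 (0.028 to 1.57, unadjusted p = 0.0438, adjusted p = 0.482). Between 25(OH)D3 and 20(OH)D3 LPL differed by -0.02 (95% interval -0.41 to 0.36), and 0.0% of all entries passed, 970 of them having an unadjusted p under 0.05 in limma against 0 of the 9 genes. Averaged over both pairs, LPL was 0.38 higher with the hydroxyl at C20 (95% interval 0.11 to 0.65, adjusted p = 0.413) and CPT1A was at -0.41 (-0.80 to -0.01, adjusted p = 0.535), in a comparison where 0.0408% passed.

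CPT1A, RORB and RORA gave values in the same direction in both genotypes with 1,20(OH)2D3, without a call. CPT1A had log2 ratios of -0.79 in VDR-WT and -0.68 in VDR-KD (joint value -0.73, 95% interval -1.29 to -0.17, limma adjusted p = 0.303). RORB had 0.70 and 0.60 (joint 0.65, -0.10 to 1.40, adjusted p = 0.458), and RORA had -0.67 and -0.37 (joint -0.52, -1.29 to 0.25, adjusted p = 0.573). RORB was at 0.79 and 0.64 with 1,25(OH)2D3 as well (joint 0.71, -0.04 to 1.46, adjusted p = 0.329). The joint log2 fold changes of PPARA and PPARD lay between 0.02 and 0.24 with every compound, and the widest interval of PPARG reached 2.26 to each side.

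No difference between the genotypes in the response to a compound passed for any of the 9 genes. Each compound was set against all 4 remaining treatments in a fit that left 6 residual degrees of freedom, and limma adjusted p-values were 0.9998 or above. Of all entries 0.0% passed for 1,25(OH)2D3, 0.00681% for 1,20(OH)2D3, 0.00681% for 25(OH)D3 and 0.0% for 20(OH)D3, with 450, 560, 455 and 435 at an unadjusted p under 0.05. The lowest unadjusted p-values of the 9 genes belonged to PPARG with 20(OH)D3 (0.0107), which rests on the value listed at 0, and to PDK4 with 25(OH)D3 (0.0375). For LPL with 1,25(OH)2D3 the difference in response was 0.16 (95% interval -0.67 to 1.00).

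The other genes of these pathways were drawn up in 7 lists of 81 genes. For 9 the entry also covers a further protein-coding gene and these were not used, and 55 of the remaining 72 were tested. Between the genotypes 13 were higher and 8 lower in VDR-KD, 38.2% of those tested beside the 22.8% of all entries, with a median log2 fold change of -0.015, against 0.016 over all entries. With 1,25(OH)2D3 against ethanol 4 passed (3 higher, 1 lower), 7.27% beside the 1.99% of all entries, and 0 with each of the other compounds.

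Among the partners and coregulators of the PPARs, 1 of 12 was higher in VDR-KD and 1 lower, a share of 16.7% that lies below the 22.8% of all entries. PPARGC1A, or PGC-1α, the coactivator of PPARs that drives mitochondrial biogenesis and that MITF raises in some melanomas, was at 1.93 ± 0.364 FPKM in VDR-WT and 4.98 ± 0.697 FPKM in VDR-KD (SD, n = 5), a log2 fold change of 1.33 (limma adjusted p = 0.00131). MITF was at -0.16 (limma adjusted p = 0.0479), and a link between MITF and PPARGC1A was not tested. RXRB, 1 of the RXR partners, was lower (-0.45, adjusted p = 0.00751), while RXRA was at -0.06 (adjusted p = 0.739). RXRG was higher with 1,25(OH)2D3 against ethanol (0.79, adjusted p = 0.0362). Of 7 clock genes with ROR response elements, NPAS2 was the single call (14.3% of the list), lower in VDR-KD (means of 61.5 and 36.9 FPKM, n = 5, log2 fold change -0.75 ± 0.0658 (SE), adjusted p = 0.000248). ARNTL was at 0.11 (adjusted p = 0.495) and NR1D1 at -0.10 (adjusted p = 0.663).

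In the list of mitochondrial fatty acid oxidation and uncoupling 4 of 14 genes were higher in VDR-KD and 1 lower, 35.7% beside the 22.8% of all entries. UCP2, an uncoupling protein family member and carrier of the inner membrane, had the largest value (4.47 ± 0.980 against 11.6 ± 2.25 FPKM, log2 fold change 1.36, limma adjusted p = 0.000512). SLC25A20, which carries acylcarnitines in the step after CPT1A, was higher by 0.39 (adjusted p = 0.0202) and DECR1, an auxiliary enzyme for unsaturated fatty acids, by 0.35 (adjusted p = 0.0222). HADHB, of the trifunctional protein, was lower (-0.19, adjusted p = 0.0221) but higher with 1,25(OH)2D3 (0.39, adjusted p = 0.0407).

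Of the regulators of pyruvate dehydrogenase, 3 of 7 genes were higher in VDR-KD and 3 lower, 85.7% beside the 22.8% of all entries. PDK2 was higher (5.41 ± 1.12 against 11.03 ± 2.58 FPKM, log2 fold change 1.01, limma adjusted p = 0.00102), as was the phosphatase PDP2 (0.87, adjusted p = 0.0110), which acts against the kinases. PDK1, the kinase that hypoxia raises, was lower (56.3 ± 9.26 against 36.5 ± 5.27 FPKM, -0.62, adjusted p = 0.000437). Of 11 hypoxia response genes 6 were lower (54.5%, beside 9.68% of all entries) and 0 higher (13.1% of all entries), their median log2 fold change being -0.47. With 1,25(OH)2D3 PDK3 was higher (0.60, adjusted p = 0.0349) and PDP1 lower (-0.64, adjusted p = 0.0355), and 3 of the 11 hypoxia genes were higher (27.3%, beside 1.46% of all entries).

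In the list of fatty acid uptake, binding and activation, 3 of 8 genes were higher in VDR-KD and 2 lower, 62.5% beside the 22.8% of all entries. The fatty acid binding proteins FABP3 (9.02 ± 2.25 against 4.52 ± 1.91 FPKM, log2 fold change -1.03, limma adjusted p = 0.00102) and FABP7 (82.9 ± 15.5 against 44.1 ± 7.41 FPKM, -0.91, adjusted p = 0.000139) were lower, while FABP5, of the same family, was higher (78.2 ± 7.49 against 96.5 ± 14.6 FPKM, 0.29, adjusted p = 0.0130), as was SLC27A4, a fatty acid transporter (0.32, adjusted p = 0.0381). Of 5 lipid droplet genes PLIN3 and ABHD5 were higher (0.30 each, adjusted p = 0.00989 and 0.0412), 40% beside the 22.8% of all entries. Of the 7 other regulators of lipoprotein lipase 2 were abundant enough to test and neither passed, LMF1, which matures the enzyme, being at -0.49 (adjusted p = 0.0780) and VLDLR at -0.09 (adjusted p = 0.288).

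**Figure D4:**
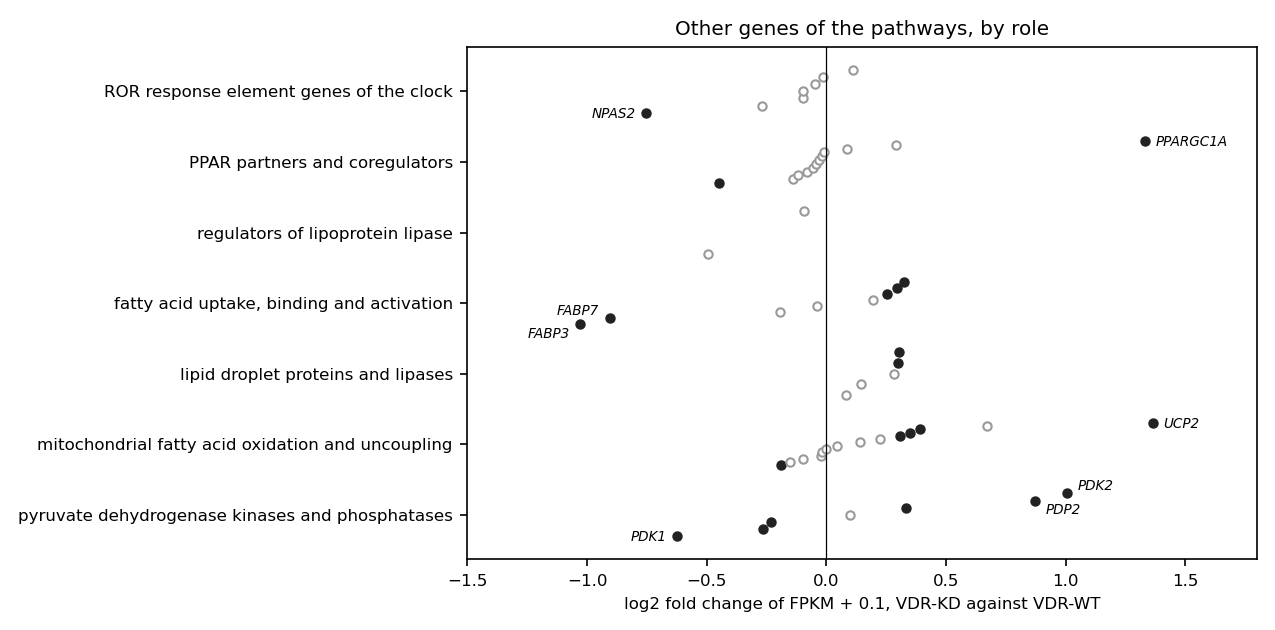
Log2 fold change of FPKM + 0.1 in VDR-KD against VDR-WT (horizontal axis) for the 55 tested genes of 7 pathway lists (rows). Each point is 1 gene, filled where the adjusted p was under 0.05, and names mark the filled points with the largest changes. Calls lie on both sides of 0, 13 higher and 8 lower.

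Among 9562 protein-coding genes averaging 1 FPKM or more, the genes most alike to LPL over the 10 libraries were ZNF367 (Pearson r = 0.986 of log2(FPKM + 0.1)), CNTNAP1 (0.983) and CCDC86 (0.978). For RORB they were WDFY1 (0.989), L3MBTL4 (0.979) and TTK (0.978), and for PDK4 SIGIRR (0.973), SYTL4 (0.965) and KLHDC10 (0.964). The 10 points share their genotypes and treatments, so these values describe a common pattern only.

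Searched were 15 RefSeq (GRCh38.p14) start sites of 8 of the genes, LPL being left out. Shown are RORB, the gene that was lower, PDK4, 1 of those that were higher, and PPARG, which alone of the 8 held the receptor half-site, a choice made after the windows were seen. The 250 bases upstream of the first start of RORB (chr9:74497085-74497334, plus strand), PDK4 (chr7:95596517-95596766, minus strand) and PPARG (chr3:12287118-12287367, plus strand) are given 5′ to 3′. Capitals mark the CCAAT box, read on the other strand as ATTGG, in RORB and PDK4, and AGGTCA in PPARG.
RORB: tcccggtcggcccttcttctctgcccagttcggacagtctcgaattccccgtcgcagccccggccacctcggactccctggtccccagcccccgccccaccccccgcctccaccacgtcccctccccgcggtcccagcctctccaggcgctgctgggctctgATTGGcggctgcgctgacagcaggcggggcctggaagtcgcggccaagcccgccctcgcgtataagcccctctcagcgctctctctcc
PDK4: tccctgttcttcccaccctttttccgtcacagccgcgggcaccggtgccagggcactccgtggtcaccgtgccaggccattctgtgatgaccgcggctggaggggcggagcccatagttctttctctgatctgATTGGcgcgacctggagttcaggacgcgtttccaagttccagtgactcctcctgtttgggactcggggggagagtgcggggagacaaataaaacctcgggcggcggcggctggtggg
PPARG: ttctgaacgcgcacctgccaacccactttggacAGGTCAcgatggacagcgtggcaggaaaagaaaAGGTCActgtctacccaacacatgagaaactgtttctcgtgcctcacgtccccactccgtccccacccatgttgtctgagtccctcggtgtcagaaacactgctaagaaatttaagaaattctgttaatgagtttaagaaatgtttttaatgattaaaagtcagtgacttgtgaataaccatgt
Both strands were searched in each window. The half-site AGGTCA stood in 12.1% of 35116 start sites of all genes and in 3 of the 15, all of PPARG, at -217 and -184 from the start shown. The DR1, AGGTCA repeated after any 1 base, stood in 0.0171% of all and in 0 of the 15, and the DR3 of the VDR, AGGTCA repeated after any 3 bases, in 0.0057% and in 0. CCAAT stood in 32.0% of all and in 6 of the 15, at -88 in RORB and -117 in PDK4, and the GC box GGGCGG in 42.6% and in 6. A match is a description of these letters and not a binding site.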

How the data were processed

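RNA-seq of 10 libraries of WM164 cells was deposited by the authors as FPKM, made according to the submitters' processing notes with STAR 2.7.1a, Cufflinks 2.2.1 and Cuffdiff on GRCh38. The sources used here name no annotation, no strand setting and no pooling of the stated triplicates. One label reads 2(OH)D3 where the title reads 20(OH)D3, and the title was followed. Read numbers are unknown, and steps between low values put an FPKM of 1 near 9.98 fragments per kb (206 entries, tolerance 0.1).

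The 9 genes were matched by name, and the members and lists were chosen with earlier results of these data known. Entries with a mean of at least 0.5 FPKM were fitted with limma 3.58.1 in R 4.3.3 (eBayes with trend) on log2(FPKM + 0.1), which understates changes of low genes, with terms for genotype and treatment, so that the treatment pairs the genotypes. Named from each list were up to 3 calls by size, otherwise the most abundant genes; additional named values were chosen after they were seen. Coordinates came from the files and GENCODE 29. Fits were tested on simulated data. Alternatives changed the constant, the filter, the scaling, the trend, the terms and the libraries. Some items of the pathways, and 1 list that held one, are not reported here.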

Additional observations from a re-analysis of the deposited data

Results flagged for a closer look

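PPARG in VDR-WT was listed at 0.0 FPKM with 20(OH)D3, apart from the other 4 VDR-WT libraries (0.412 to 0.488 FPKM). PDK4 in VDR-WT was at 1.51 FPKM with 25(OH)D3, apart from the other 4 (0.643 to 0.863 FPKM). Chance sets about 1 in 20 groups of this size apart in this way, and the 9 genes gave 18 such groups.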

How the results depend on the processing

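Each condition has 1 library, and the fits assume that the additive terms hold. The number of the 9 genes called between the genotypes was 5, against 3 with every entry over a mean FPKM of 0 in the test (PPARA and PDK4 lost). It was 1 without the pair of libraries low in HSPA6 and not matched in the other genotype, and 3 to 5 with 1 library left out. The calls over all entries, 1925 higher and 1422 lower of 14689, fell as well. They were 1465 and 1078 of 26688 with every entry over 0, and 618 and 360 of 14689 without the pair. With 1 library left out they were 1251 to 1473 higher and 865 to 1066 lower. The 1 call with 1,25(OH)2D3 against ethanol, against 25(OH)D3 and for the C1α hydroxyl became 0 with no genotype term and 0 without that pair, and was 0 to 1 with 1 library left out. Over all entries the calls with 1,25(OH)2D3 against ethanol were 215 higher and 78 lower. They were 32 and 7 with no genotype term, and 28 and 18 without that pair. Values that changed sign were all near 0. For RORA between the genotypes these were 0.078 without the pair and -0.26 to 0.029 with 1 library left out. For LPL between 25(OH)D3 and 20(OH)D3 they were 0.14 without the pair and -0.19 to 0.14 with 1 library left out, and for LPL with 20(OH)D3 against ethanol -0.17 to 0.16. With 1 in place of 0.1 added, RORB was at -0.71 and PDK4 at 0.59. The genotype call of LPL was kept in 19 of 19 alternatives, with a log2 fold change of 1.47 to 1.83. The difference in response to a compound could not be fitted without that compound's own library in either genotype. Without the treatment block, the unpaired fit, 5 of the 9 genes were called between the genotypes (adjusted p of LPL 0.00142), the same 5 genes.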
